A study of Mus musculus with 8 samples.

Results

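The genes described here are those of the mitochondrial ribosomal proteins, taken as the protein-coding genes whose GENCODE symbol begins with Mrpl, for the large subunit, or Mrps, for the small subunit, followed by a digit. There were 78 of them, 49 Mrpl and 29 Mrps, among 21685 protein-coding genes and 48328 genes in all, and they lie on 17 chromosomes. The rule that chose them uses names and no measured value, though earlier results of these data were known when it was set. The mitochondrial ribosome translates the few proteins encoded in mitochondrial DNA, all of which are built into the oxidative phosphorylation system. Its proteins are encoded in the nucleus, made in the cytosol and imported, while its 2 ribosomal RNAs, mt-Rnr1 of the small subunit and mt-Rnr2 of the large subunit, are transcribed from mitochondrial DNA itself. In muscle, a tissue with high oxidative capacity, assembly of the particle draws on both genomes.

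RNA of 8 C57BL/6J mice aged 24 months was sequenced from the lower part of the tibialis anterior, the fast-twitch muscle at the front of the shin. The 4 K320E-skm mice carry in skeletal muscle a dominant mutant form of Twinkle, the mitochondrial DNA helicase encoded by Twnk, and the 4 wild-type mice do not; each genotype had 2 mice labelled male and 2 labelled female. The promoter or Cre line that limits the mutant protein to muscle is not given in the sources used here, and 1 muscle holds fibres together with other cells. The comparison between genotypes asks whether the nuclear ribosomal protein genes differ in aged muscle with this mutant helicase, and whether both subunits do so alike.

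Levels are FPKM, the number of sequenced fragments of a gene scaled by transcript length and by the mapped fragments of the library, as deposited. Library sums of FPKM lay between 731824 and 858029, with 10167 to 11581 genes at 1 FPKM or more. The absolute depth is unknown, and the smallest values gave relative depths between 1.00 and 1.31. The library labelled male K320E-skm 4 held female transcripts, with Xist at 10.2 FPKM and the Y-linked Ddx3y at 0.012 FPKM, so its label goes against its RNA and results are also given without it. Markers of muscle fibres were abundant. In the deposited values their summed level was 16500 to 19300 FPKM in K320E-skm, against 22000 to 23100 FPKM in wild-type libraries, with no overlap. In the same values 9.59% of all tested genes were lower in K320E-skm without overlap. Markers of 8 other cell types overlapped between genotypes, and 0 of 3 satellite cell markers reached 1 FPKM. In whole muscle, fewer cells of a type, less RNA per cell and the scaling of the libraries cannot be told apart by these sums. Twnk itself had 3.82, 4.93, 5.06 and 4.66 FPKM in K320E-skm 1 to 4, against 2.16, 2.40, 2.21 and 2.70 FPKM in wild-type 1 to 4, which does not separate mutant from endogenous transcript.

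Promoters give the first view of what these genes share. Windows of 250 bases before to 50 bases after the transcription start were taken from RefSeq (GRCm38.p6), and 69 of the 78 genes had at least 1 window, 75 windows in all. Each was searched on both strands for CGCATGCG, a core of the sites bound by NRF1, an activator of many nuclear genes for mitochondrial proteins, for CCGGAAG, a core bound by ETS factors such as GABP, and for AAGATGGCG, a core bound by YY1. The last 3 letters of the ETS core are the first 3 of the YY1 core, so both can match 1 stretch, and 2 genes held both cores. In the windows below, capitals mark the cores, in either orientation. Mrpl43 is shown because it is the head-to-head neighbour of Twnk, Mrps18b because its window holds both the NRF1 and the ETS core, and Mrpl42 because it had the highest level. All are written 5′ to 3′ on the minus strand, at chr19:45006393-45006692 for Mrpl43, chr17:35916391-35916690 for Mrps18b and chr10:95501900-95502199 for Mrpl42.
Mrpl43: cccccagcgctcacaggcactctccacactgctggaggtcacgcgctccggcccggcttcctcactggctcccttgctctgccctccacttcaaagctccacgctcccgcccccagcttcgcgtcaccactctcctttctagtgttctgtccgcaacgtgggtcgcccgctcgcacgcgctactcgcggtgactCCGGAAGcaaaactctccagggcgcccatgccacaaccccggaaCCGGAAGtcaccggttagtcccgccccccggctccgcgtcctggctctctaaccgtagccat
Mrps18b: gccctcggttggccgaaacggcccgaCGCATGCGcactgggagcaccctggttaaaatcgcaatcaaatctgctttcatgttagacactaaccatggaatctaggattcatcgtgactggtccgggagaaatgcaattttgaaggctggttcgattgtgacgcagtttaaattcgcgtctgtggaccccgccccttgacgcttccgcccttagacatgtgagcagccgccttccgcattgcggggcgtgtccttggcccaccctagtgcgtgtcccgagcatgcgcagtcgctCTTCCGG
Mrpl42: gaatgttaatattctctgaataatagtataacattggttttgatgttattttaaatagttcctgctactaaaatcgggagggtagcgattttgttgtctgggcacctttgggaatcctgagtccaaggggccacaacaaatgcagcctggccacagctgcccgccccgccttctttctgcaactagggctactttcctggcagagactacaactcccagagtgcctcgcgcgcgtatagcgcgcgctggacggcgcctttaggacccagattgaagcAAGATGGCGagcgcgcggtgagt

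In the Mrpl43 window the capitals mark 2 ETS cores. The capitals in the Mrps18b window are an NRF1 core and, at its end, an ETS core read from the opposite strand. The Mrpl42 window holds a YY1 core that spans an ATG. An ETS core was found in 26 of the 69 genes with a window (37.7%), 15 of 43 large subunit genes and 11 of 26 small subunit genes. Among all 32851 windows of that length 8.86% held it, among those of the mitochondrial ribosomal proteins 34.7%, and among 7825 tested genes with a window 21.6%. The YY1 core was found in 8 genes (11.6%), 4 of each subunit, and in 4.08% of tested genes. The NRF1 core was found in 7 genes (10.1%), 6 large and 1 small, and in 4.61% of tested genes. At least 1 of the 3 cores was found in 36 of the 69 genes. The matching share over all tested genes was not computed, so that count has no comparison. A match is a string of letters and not evidence of binding, and its absence says only that these letters are not in this window. Genes with the ETS core had a median level of 21.2 FPKM and genes without it 12.3 FPKM. For the YY1 core the medians were 13.4 FPKM with and 16.8 FPKM without it, and for the NRF1 core 16.6 and 16.8 FPKM. These are descriptions of 69 genes and were not tested.

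Close neighbours on the opposite strand were common. Counting a protein-coding gene that starts within 1000 bases on the other strand, 33 of the 78 genes (42.3%) had a head-to-head partner, against 1647 of 9606 tested protein-coding genes (17.1%). The distance was taken without sign, so pairs whose genes overlap at their starts were counted too. Mrps11 and Mrpl46, one from each subunit, form such an overlapping pair with starts 412 bases apart. Mrpl36 starts 29 bases from Ndufs6 and Mrpl47 starts 615 bases from Ndufb5, and both partners encode subunits of respiratory complex I. Mrps12 starts 172 bases from Sars2, which encodes the mitochondrial seryl-tRNA synthetase. In 23 of the 78 genes an exon overlaps an exon of another protein-coding gene, so that fragments could have been assigned to either gene, and the strand setting of the counting is not given in the sources used here. Pseudogenes that carry the same names, 5 in all and at most 2.72 FPKM, were left out.

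All 78 genes were expressed. None was listed at 0 in any library, and the lowest single value was 2.04 FPKM. Mean levels over the 8 libraries ran from 2.97 to 170 FPKM with a median of 16.6 FPKM, and 68 of the 78 genes lay between 5 and 50 FPKM. The median was 15.9 FPKM for large subunit genes and 17.7 FPKM for small subunit genes. The 45 genes listed as the counterpart of a bacterial ribosomal protein had a median of 19.0 FPKM, and the other 33 had a median of 14.1 FPKM. Of the related Mrps18a, Mrps18b and Mrps18c, that list takes Mrps18c alone, and the first 2 stand among the 33. The highest mean was 57.3 times the lowest, while most of the proteins occur once in each ribosome. Levels were not closely tied to exonic length (Spearman's rho −0.26 over 78 genes, a description), and the order of levels was nearly the same in both genotypes (rho 0.991 between genotype means). Of 77 neighbours in that order, 8 differed by more than the larger of their SDs over 8 libraries.

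**Figure D1:**
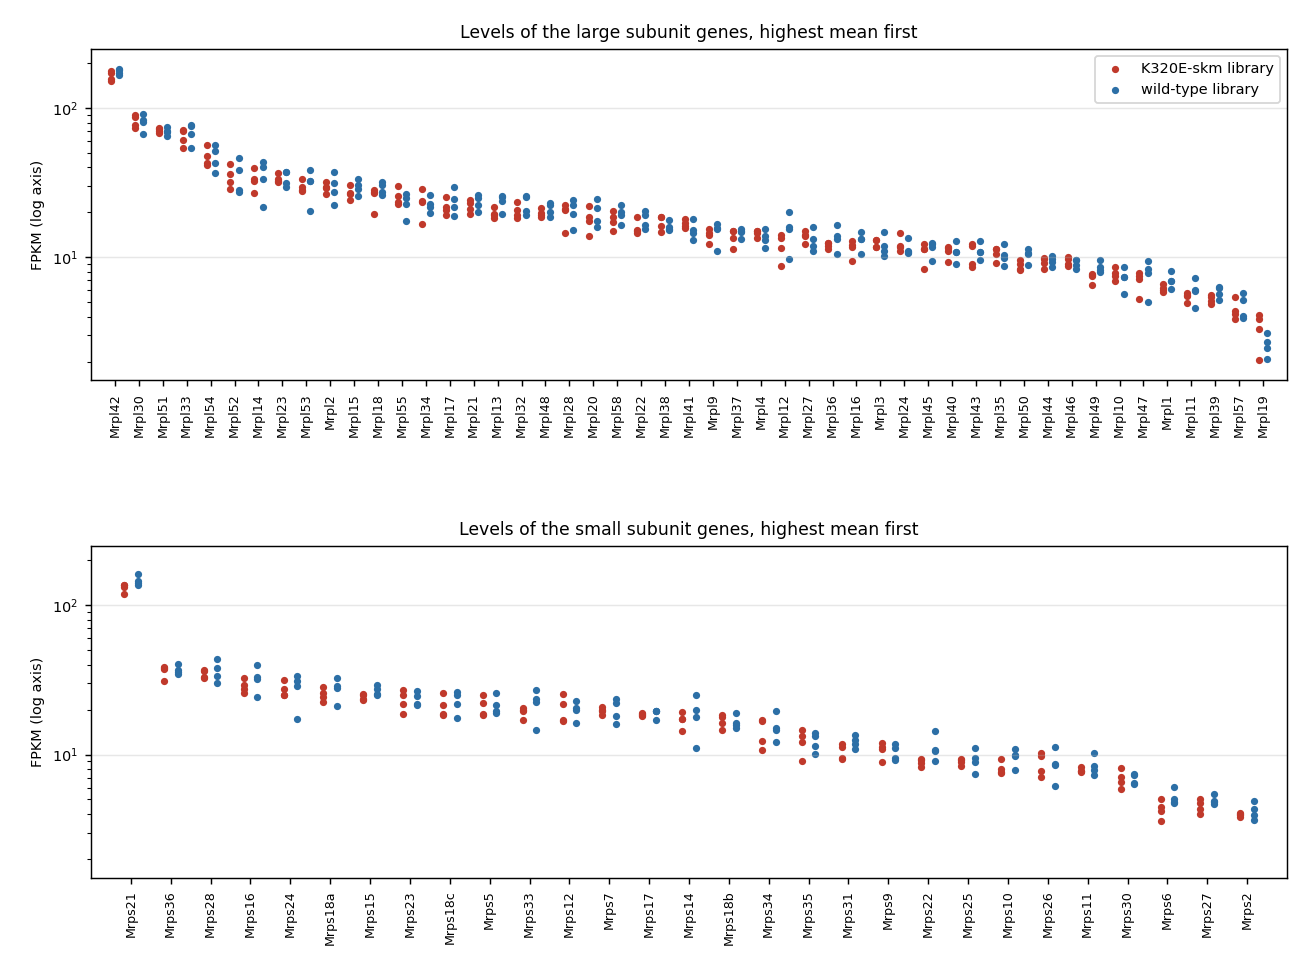
FPKM of each large and small subunit gene on a log axis, 1 point per library, with K320E-skm (red) left of wild-type (blue) for each gene, ordered by mean level. Mrpl42 and Mrps21 stand above the rest of their subunit, most genes lie between 5 and 50 FPKM, and the points of both genotypes overlap for every gene but Mrpl49.

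The 5 genes at 50 FPKM or more carried 29.8% of the summed FPKM of the 78. Mrpl42 (ENSMUSG00000062981, chromosome 10, 95480805 to 95501940, GRCm38), a large subunit protein with no bacterial counterpart, had 172, 177, 156 and 152 FPKM in K320E-skm 1 to 4, against 172, 168, 183 and 179 FPKM in wild-type 1 to 4. Mrps21 (ENSMUSG00000054312, chromosome 3, 95862634 to 95871519), a small subunit protein of bacterial origin, had 137, 136, 133 and 119 FPKM in K320E-skm libraries, against 163, 146, 136 and 142 FPKM in wild-type libraries. In both genes the lowest library was K320E-skm 4 and the genotypes overlapped. Mrpl30, Mrpl51 and Mrpl33, all of the large subunit, followed with means of 81.0, 70.3 and 66.4 FPKM over the 8 libraries. Mrpl51, which has no bacterial counterpart, was among the steadiest, with 70.8 ± 2.22 FPKM in K320E-skm, against 69.9 ± 3.92 FPKM in wild-type libraries (SD, n = 4 each).

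At the other end, 5 genes averaged under 5 FPKM. Mrpl19 (ENSMUSG00000030045, chromosome 6, 81957851 to 81965958), a homolog of a bacterial large subunit protein at the interface of the subunits, was lowest, with 2.04, 4.12, 3.88 and 3.33 FPKM in K320E-skm libraries, against 2.48, 2.09, 2.71 and 3.09 FPKM in wild-type libraries. K320E-skm 1 was the lowest of all 8 libraries for this gene and the other K320E-skm libraries were the highest, so the genotypes overlapped. Mrps2, a homolog of a bacterial small subunit protein, averaged 4.08 FPKM, and Mrpl57, Mrps27 and Mrps6 averaged 4.59, 4.73 and 4.75 FPKM. Mrps27, a pentatricopeptide repeat protein of the small subunit, averaged 4.51 ± 0.448 FPKM in K320E-skm, against 4.94 ± 0.362 FPKM in wild-type libraries (SD, n = 4 each). Between wild-type libraries the coefficient of variation had a median of 13.4% over the 78 genes, from 3.98% in Mrpl42 to 31.4% in Mrps14.

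Between genotypes, none of the 78 genes passed an adjusted p under 0.05. The model was limma on log2(FPKM + 1) with genotype and sex label, adjusted over 10521 tested genes, of which 2 (0.019%) passed. The smallest adjusted p among the 78 was 0.411. No gene of the 78 had an unadjusted limma p under 0.05 either, while 13.1% of all tested genes did. In 1 of the 78 (1.28%) the genotypes did not overlap, Mrpl49, which was lower in K320E-skm, against 9.59% of all tested genes that were lower without overlap. None was higher without overlap, against 0.333% of all tested genes. Without K320E-skm 4, whose sex label is contradicted, again 0 of 78 passed (smallest adjusted p 0.483), 0 had an unadjusted p under 0.05, and 2 (2.56%) were lower without overlap, against 13.9% of all tested genes. The median log2 fold change of the 78 genes was then −0.05.

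Fold changes were small. On the log2(FPKM + 1) scale they ran from −0.32 in Mrpl12 to 0.25 in Mrpl19, at most 1.25-fold either way, and 14.5% of all tested genes lay below and 4.06% above that span. The 95% interval stayed within −0.5 to 0.5, that is within 1.41-fold, for 64 of the 78 genes (82.1%) and for 45.3% of all tested genes. That contrast moved with the scaling: the shares were 75.6% of the 78 genes and 68.5% of all tested genes after median-ratio rescaling, and 59.0% and 61.6% at a common sum without the mitochondrial ribosomal RNAs. In the deposited values the lowest bound of any of the 78 genes was −0.81, and the highest was 0.63. The median log2 fold change was −0.06, with 52 genes under 0, against −0.14 over all tested genes, but with the libraries rescaled by median ratios it turned to 0.12, with 70 genes above 0, against 0.02 over all tested genes. In the deposited values 62 of the 78 lay above the median gene.

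**Figure D2:**
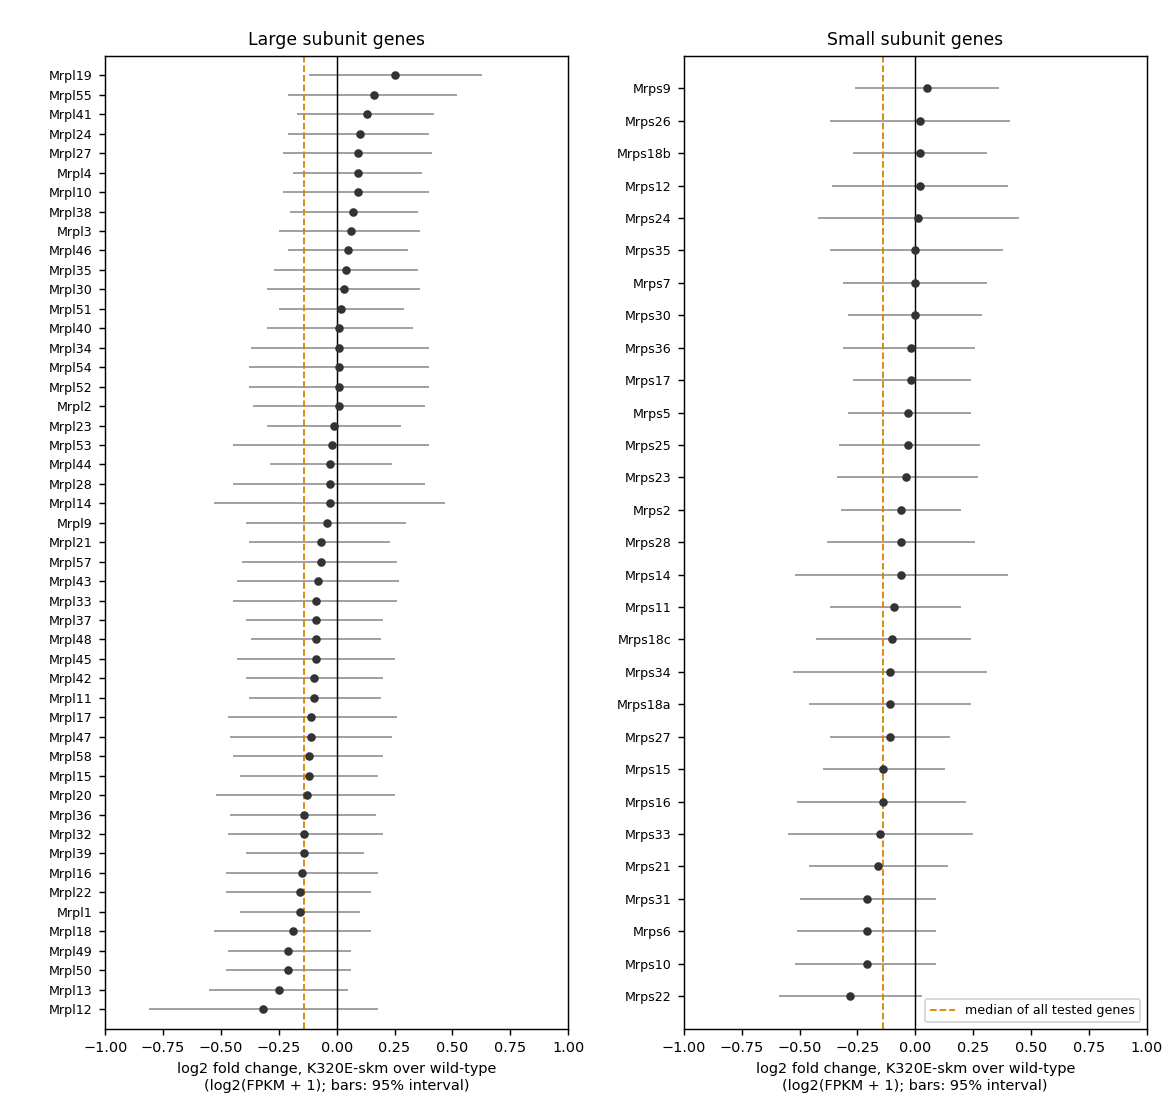
Log2 fold change of K320E-skm over wild-type for each gene (points) with its 95% interval from limma (bars), large subunit on the left and small subunit on the right, ordered by fold change. The bars of all 78 genes reach across 0, and most points lie right of the dashed median of all tested genes at −0.14, and after median-ratio rescaling 70 of the 78 lie above 0.

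Large subunit genes of the stalk, which recruits translation factors, were Mrpl12 and Mrpl10. Mrpl12 (ENSMUSG00000039640, chromosome 11, 120484613 to 120489065), which is also known to bind the mitochondrial RNA polymerase, had 8.71, 14.1, 11.5 and 13.4 FPKM in K320E-skm libraries, against 15.9, 9.73, 20.0 and 15.6 FPKM in wild-type libraries. Wild-type 2 lay below 3 of the 4 K320E-skm libraries, and the log2 fold change of −0.32 (SE 0.22, limma adjusted p = 0.523) had a wide 95% interval, from −0.81 to 0.18. Mrpl10, its partner at the base of the stalk, had 6.97, 8.57, 7.47 and 7.84 FPKM in K320E-skm libraries, against 8.64, 5.68, 7.35 and 7.35 FPKM in wild-type libraries, and the log2 fold change was 0.09 (limma adjusted p = 0.783). Wild-type libraries held both the highest and the lowest value of Mrpl10. The log2 fold changes of Mrpl12 and Mrpl10 were −0.13 and 0.26 after median-ratio rescaling.

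Mrpl49 (ENSMUSG00000007338, chromosome 19, 6053622 to 6057785), a large subunit protein with no bacterial counterpart, had 6.51, 7.46, 7.74 and 7.60 FPKM in K320E-skm libraries, against 9.60, 8.03, 8.22 and 8.57 FPKM in wild-type libraries. All 4 K320E-skm libraries lay below all 4 wild-type libraries, with 7.33 ± 0.556 FPKM in K320E-skm, against 8.61 ± 0.697 FPKM in wild-type libraries (SD, n = 4 each). Its exact permutation p was 0.0286, a value that every gene without overlap reaches, and 9.59% of all tested genes were lower without overlap. The log2 fold change was −0.21 (SE 0.12, limma adjusted p = 0.458), and after median-ratio rescaling it was −0.03 and the genotypes overlapped. Its start lies 59 bases from that of Fau, which encodes a ubiquitin-like fusion with a cytosolic ribosomal protein, and its exons overlap those of Syvn1. The log2 fold change of Fau was 0.02 (limma adjusted p = 0.967).

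Mrpl13, a homolog of a bacterial large subunit protein, had 18.3, 21.7, 19.5 and 19.1 FPKM in K320E-skm libraries, against 25.6, 19.4, 25.2 and 23.9 FPKM in wild-type libraries. Wild-type 2 alone lay within the K320E-skm range, and the log2 fold change was −0.25 (SE 0.13, limma adjusted p = 0.44). Rescaled by median ratios, that of Mrpl13 was −0.06. Mrpl41 and Mrpl55, both without a bacterial counterpart, were at the upper end, at 16.7 ± 1.02 and 25.6 ± 3.37 FPKM in K320E-skm libraries, against 15.2 ± 2.07 and 22.9 ± 3.94 FPKM in wild-type libraries (SD, n = 4 each). Their log2 fold changes of 0.13 and 0.16 had limma adjusted p of 0.66 and 0.662, and the genotypes overlapped in both. Rescaled by median ratios, the log2 fold changes of Mrpl41 and Mrpl55 were 0.32 and 0.35. Mrpl24, a homolog of a bacterial protein that starts large subunit assembly, had 11.8, 14.6, 11.1 and 12 FPKM in K320E-skm libraries, against 13.4, 10.8, 10.7 and 11.1 FPKM in wild-type libraries. Wild-type 1 stood apart from the other wild-type libraries in this gene, and the genotypes overlapped.

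Among large subunit genes with a known special role, Mrpl45, which faces the inner membrane near the exit of the peptide tunnel, averaged 10.8 ± 1.68 FPKM in K320E-skm, against 11.5 ± 1.40 FPKM in wild-type libraries (SD, n = 4 each). Mrpl58, a peptidyl-tRNA hydrolase that frees stalled chains and also became a structural protein of the ribosome, averaged 17.9 ± 2.28 FPKM in K320E-skm, against 19.6 ± 2.49 FPKM in wild-type libraries. The log2 fold changes were −0.09 and −0.12, with 95% intervals from −0.43 to 0.25 and from −0.45 to 0.20, and both genes overlapped between genotypes.

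Mrpl43 (ENSMUSG00000025208, chromosome 19, 45004829 to 45006442) is the gene next to Twnk. The starts of both genes are 779 bases apart on opposite strands, and 507 of their exonic bases overlap. Mrpl43, which encodes a large subunit protein with no bacterial counterpart, had 8.63, 12.3, 9.03 and 11.9 FPKM in K320E-skm libraries, against 12.9, 10.8, 9.64 and 10.8 FPKM in wild-type libraries. The genotypes overlapped and the log2 fold change was −0.08 (SE 0.16, limma adjusted p = 0.823), while that of Twnk was 0.74 (limma adjusted p = 0.143) with no overlap between genotypes. The 95% interval of Mrpl43 ran from −0.43 to 0.27. Fragments in the shared bases could have been given to either gene.

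Small subunit genes had log2 fold changes between −0.28 and 0.05 in the deposited values. After median-ratio rescaling they lay between −0.10 and 0.23, with 25 of the 29 above 0. Mrps22, a small subunit protein with no bacterial counterpart whose human gene is mutated in a mitochondrial disease of infancy, had 8.78, 9.40, 8.21 and 9.24 FPKM in K320E-skm libraries, against 14.3, 9.0, 10.6 and 10.7 FPKM in wild-type libraries. Wild-type 2 again lay within the K320E-skm range and wild-type 1 lay above all others, and the log2 fold change of −0.28 (SE 0.14, limma adjusted p = 0.411) had the smallest p of the 78. Mrps10 and Mrps6, homologs of bacterial small subunit proteins, averaged 8.13 ± 0.836 and 4.33 ± 0.607 FPKM in K320E-skm libraries, against 9.62 ± 1.27 and 5.16 ± 0.616 FPKM in wild-type libraries (SD, n = 4 each). Both had a log2 fold change of −0.21, with limma adjusted p of 0.492 and 0.488, and overlapped between genotypes. The log2 fold changes of Mrps22, Mrps10 and Mrps6 were −0.10, −0.04 and −0.05 after median-ratio rescaling.

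Mrps12, the small subunit protein at the decoding centre, had 16.8, 25.4, 17.1 and 21.9 FPKM in K320E-skm libraries, against 22.7, 20.5, 19.8 and 16.4 FPKM in wild-type libraries. The values intermixed, and its log2 fold change was 0.02 with a 95% interval from −0.36 to 0.40. Mrps18a, Mrps18b and Mrps18c are paralogs descended from 1 bacterial protein, of which the Mrps18a product sits in the large subunit despite its name. They averaged 25.3 ± 2.51, 16.7 ± 1.66 and 21.1 ± 3.44 FPKM in K320E-skm libraries, against 27.6 ± 4.77, 16.5 ± 1.67 and 22.7 ± 3.85 FPKM in wild-type libraries (SD, n = 4 each). Their log2 fold changes were −0.11, 0.02 and −0.10, none past the threshold, and each overlapped between genotypes.

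The Mrps30 product also sits in the large subunit, and the Mrps36 product is a subunit of the 2-oxoglutarate dehydrogenase complex of the citric acid cycle and no longer counted as ribosomal. Mrps30 averaged 6.92 ± 0.939 FPKM in K320E-skm, against 6.88 ± 0.534 FPKM in wild-type libraries, and Mrps36 averaged 36.4 ± 3.58 FPKM in K320E-skm, against 37.0 ± 2.48 FPKM in wild-type libraries (SD, n = 4 each). Log2 fold changes were 0.00 and −0.02. With Mrps18a and Mrps30 counted as large and Mrps36 left out, there were 51 large and 26 small subunit genes, with medians of −0.07 and −0.06 (0.12 and 0.11 after median-ratio rescaling).

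Large and small subunit genes had nearly the same median log2 fold change, −0.07 for large and −0.06 for small subunit genes as deposited, and 0.12 and 0.13 after median-ratio rescaling. Relative to the median gene it was 0.07 and 0.08 as deposited, 0.02 and 0.03 without wild-type 2, and 0.14 and 0.14 without wild-type 3. No test of the difference between the subunits was run over the genes. Of the large subunit genes 40 of 49 lay above the median gene, and of the small subunit genes 22 of 29. The summed level of large subunit genes was 1098, 1222, 1118 and 1090 FPKM in K320E-skm libraries, against 1307, 1039, 1192 and 1169 FPKM in wild-type libraries. The summed level of small subunit genes was 576.3, 641.3, 590.2 and 571.8 FPKM in K320E-skm libraries, against 714.9, 577.3, 630.2 and 622.9 FPKM in wild-type libraries. Wild-type 1 held the highest sum of both subunits, and in the large subunit wild-type 2 held the lowest.

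The ratio of the large to the small sum was 1.906, 1.905, 1.895 and 1.905 in K320E-skm libraries, against 1.828, 1.799, 1.892 and 1.876 in wild-type libraries. All 4 K320E-skm ratios lay above all 4 wild-type ratios, with the narrowest gap between K320E-skm 3 and wild-type 3, and this is a description with no test. In 2 alternatives the genotypes overlapped. The assignment by position was planned for the medians, and leaving out the highest genes was chosen after seeing the data. With the subunits assigned by position in the ribosome the ratio ran from 2.185 to 2.242 in K320E-skm libraries, against 2.07 to 2.204 in wild-type libraries. Without the 5 genes at 50 FPKM or more it ran from 1.581 to 1.656 in K320E-skm libraries, against 1.574 to 1.627 in wild-type libraries. On the log2(FPKM + 1) scale, where each gene counts alike, the mean of the large minus the mean of the small subunit genes was 0.117 ± 0.0223 in K320E-skm, against 0.0903 ± 0.0244 in wild-type libraries (SD, n = 4 each). This difference overlapped between genotypes, and wild-type 2 was the lowest library in it and in the ratio of the sums.

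**Figure D3:**
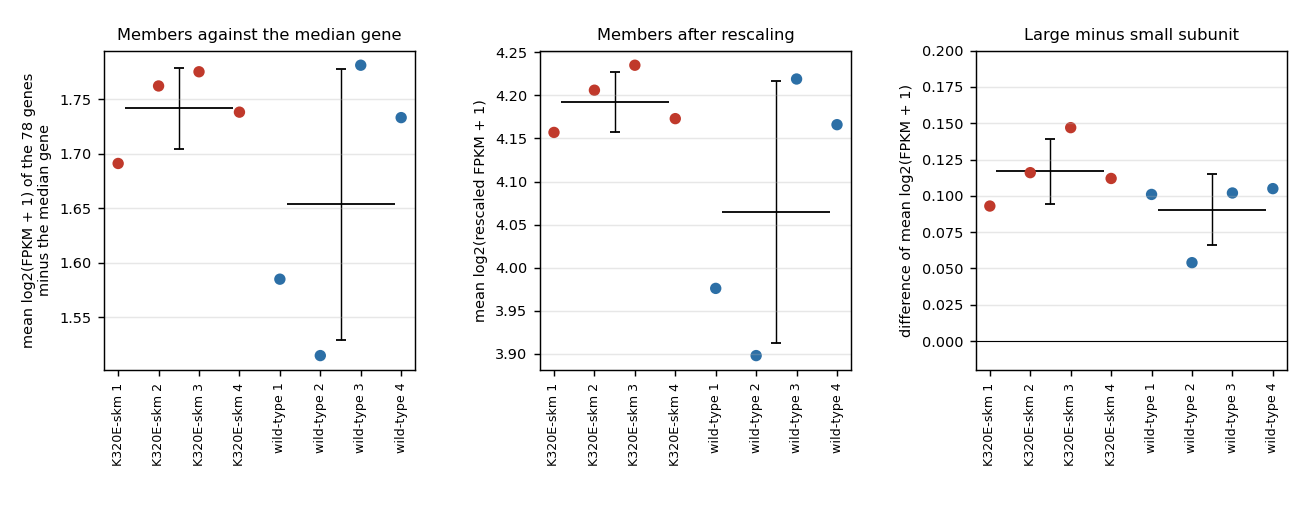
One point per library, K320E-skm left of wild-type, with the mean (line) and SD (bar, n = 4 each) of each genotype, for the mean log2(FPKM + 1) of the 78 genes minus that of the median gene, the same mean after median-ratio rescaling, and the large minus the small subunit mean. Wild-type 1 and 2 lie below the other 6 libraries in the first 2 panels, wild-type 3 is the highest library in the first panel, and the genotypes overlap in every panel.

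The wild-type libraries differed among themselves. Relative to the median gene, their mean log2 level was 1.691, 1.762, 1.775 and 1.738 in K320E-skm libraries, against 1.585, 1.515, 1.781 and 1.733 in wild-type libraries. Wild-type 1 and 2 were lowest, and the other 6 libraries lay between 1.691 and 1.781. The genotype means differed by 0.088, and the SD was 0.124 between wild-type and 0.037 between K320E-skm libraries (n = 4 each). This difference was not tested. In the deposited values wild-type 1 was the highest library for 50 of the 78 genes (64.1%) and for 58.2% of all tested genes. Wild-type 2 was the lowest library for 26 of them (33.3%) and for 12% of all tested genes. After median-ratio rescaling, wild-type 1 or 2 was the lowest library for 62 of the 78 genes (79.5%) and for 38.2% of all tested genes. Both together were the 2 lowest libraries for 38 of the 78 (48.7%) and for 8.92% of all tested genes. The wild-type mice labelled 1 and 2 differ in their sex label, so the split does not follow that label.

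Nuclear genes of complex I, the largest respiratory complex, showed the same 2 libraries as lowest, at 4.432 and 4.325 log2 units above the median gene in wild-type 1 and 2, against 4.771 and 4.740 in wild-type 3 and 4. In K320E-skm libraries their mean lay between 4.625 and 4.711 log2 units above the median gene. Genes of the cytosolic ribosomal proteins followed that order only in part, with 4.743, 4.707 and 4.552 in K320E-skm 2, 3 and 4 and 5.057 in K320E-skm 1, against 4.597, 4.454, 4.637 and 4.499 in wild-type 1 to 4. Wild-type 2 was again the lowest library, while wild-type 1 lay above wild-type 4 and K320E-skm 4.

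The scaling of the libraries bore on which genes overlapped between genotypes. The 2 mitochondrial ribosomal RNAs made up 46.9, 44.2, 46.7 and 41.5% of the FPKM sum in K320E-skm libraries, against 31.2, 35.4, 37.5 and 37.5% in wild-type libraries, with no overlap (two-sided exact permutation p = 0.0286, which is the smallest possible with 4 against 4). The mt-Rnr1 level averaged 98395 ± 17494 FPKM in K320E-skm, against 70091 ± 10494 FPKM in wild-type libraries, and the mt-Rnr2 level 260251 ± 26160 FPKM in K320E-skm, against 218013 ± 21108 FPKM in wild-type libraries (SD, n = 4 each, exact permutation p = 0.0571 and 0.0857). In the limma fit used for the 78 genes, their log2 fold changes were 0.48 and 0.26, with limma adjusted p of 0.443 and 0.668. The exact tests of these RNAs and of their share were not among the planned tests. FPKM are relative to all mapped fragments of a library, these RNAs included. The 78 genes made up 0.196 to 0.236% of the FPKM sum in K320E-skm and 0.212 to 0.243% in wild-type libraries, which overlap. Of the sum without these RNAs they made up 0.369 to 0.422% in K320E-skm and 0.334 to 0.353% in wild-type libraries, which do not. In the deposited values the ribosomal RNA share was higher and the summed markers of muscle fibres were lower in K320E-skm. The marker FPKM are themselves relative to a total that includes these RNAs. The part of either in the result was not tested.

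After median-ratio rescaling 6 of the 78 genes (7.69%) were higher in K320E-skm without overlap, against 3.46% of all tested genes, and none was lower. They were Mrpl10, Mrpl24, Mrpl27, Mrpl38 and Mrpl41 of the large subunit and Mrps25 of the small subunit. An unadjusted p under 0.05 was reached by 6 genes, all higher and all of the large subunit, against 5.66% of all tested genes that were higher at that level, and none of the 78 passed the adjusted threshold (smallest limma adjusted p 0.39, Mrpl41). Scaling to a common sum without the ribosomal RNAs, an alternative chosen after seeing the data, gave 11 genes higher without overlap (14.1%), against 3.99% of all tested genes, and 15 genes higher at an unadjusted p under 0.05, against 6.99% of all tested genes. None passed the adjusted threshold there either. Without wild-type 2, the deposited values gave 13 genes lower without overlap (16.7%), against 16.8% of all tested genes. Without wild-type 1 the median log2 fold change of the 78 genes was 0.00, against −0.06 over all tested genes, and without wild-type 2 it was −0.12, against −0.15.

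Genes for proteins of the same ribosome that carry other names had small fold changes as well. The 5 of them were Dap3, Ptcd3, Chchd1 and Aurkaip1 of the small and Gadd45gip1 of the large subunit. They had a median log2 fold change of −0.07 (0.10 after median-ratio rescaling), with 4 above the median gene. None passed the adjusted threshold and none had an unadjusted p under 0.05, against 13.1% of all tested genes. After median-ratio rescaling 1 of the 5 was higher at that p and 1 was higher without overlap, against 5.66% and 3.46% of all tested genes. Ptcd3, a pentatricopeptide repeat protein, averaged 19.3 ± 2.04 FPKM in K320E-skm, against 22.4 ± 2.18 FPKM in wild-type libraries, and Dap3, a GTP-binding protein, averaged 13.8 ± 1.32 FPKM in K320E-skm, against 14.8 ± 1.63 FPKM in wild-type libraries (SD, n = 4 each). Their log2 fold changes were −0.21 and −0.09 (−0.02 and 0.09 after median-ratio rescaling), and Ptcd3 had a limma adjusted p of 0.476.

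Of 26 genes for ribosome assembly and ribosomal RNA modification, none passed the adjusted threshold, 1 (3.85%) had an unadjusted p under 0.05 and was lower, against 13.1% of all tested genes in either direction, and 2 (7.69%) were lower without overlap, against 9.59% of all tested genes. Mterf3, which binds mitochondrial DNA and acts in large subunit assembly, had 5.80, 6.82, 6.70 and 5.24 FPKM in K320E-skm libraries, against 9.43, 9.85, 7.07 and 7.52 FPKM in wild-type libraries. Its log2 fold change was −0.40 (SE 0.14, limma adjusted p = 0.337), outside the span of the 78 ribosomal protein genes, and −0.22 after median-ratio rescaling. Dhx30, an RNA helicase of the mitochondrial RNA granule, averaged 5.89 ± 0.431 FPKM in K320E-skm, against 7.01 ± 0.731 FPKM in wild-type libraries (SD, n = 4 each). Its log2 fold change was −0.22 (limma adjusted p = 0.445), and −0.04 after median-ratio rescaling. The median over the 26 genes was −0.11 (0.06 after median-ratio rescaling), with 18 above the median gene.

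Of 17 translation factors and mRNA-binding proteins none passed, none had an unadjusted p under 0.05, and 2 (11.8%), Mtif2 and Mrrf, were lower without overlap, against 9.59% of all tested genes. Mtif2, the mitochondrial initiation factor that positions the initiator tRNA, had 4.26, 4.88, 4.65 and 4.91 FPKM in K320E-skm libraries, against 5.87, 5.10, 5.50 and 5.72 FPKM in wild-type libraries. All 4 K320E-skm libraries lay below all 4 wild-type libraries, and the log2 fold change was −0.21 (limma adjusted p = 0.437). After median-ratio rescaling the log2 fold change of Mtif2 was −0.04, and 0 of the 17 genes were without overlap. Mtrf1, a release factor, averaged 3.55 ± 0.482 FPKM in K320E-skm, against 4.46 ± 0.437 FPKM in wild-type libraries (SD, n = 4 each). Its log2 fold change was −0.27 (limma adjusted p = 0.393), and −0.11 after median-ratio rescaling. The median over the 17 genes was −0.14, that of all tested genes, and 0.04 after median-ratio rescaling. Of 80 tested cytosolic ribosomal protein genes none passed. At an unadjusted p under 0.05, 1 (1.25%) was lower, against 1265 of 10521 tested genes. The median of the 80 genes was 0.08 (0.28 after rescaling), with 78 above the median gene. After median-ratio rescaling 9 (11.2%) were higher at an unadjusted p under 0.05, against 5.66% of all tested genes, and 12 (15%) were higher without overlap, against 3.46%. At a common sum without the mitochondrial ribosomal RNAs 34 (42.5%) were higher at that p, against 6.99%, and 17 (21.2%) were higher without overlap, against 3.99%, and none passed the adjusted threshold under either scaling. Without K320E-skm 4 the median of the 80 genes was 0.21 (0.35 relative to the median gene, against 0.22 with all libraries). In that setting 3 (3.75%) were higher at an unadjusted p under 0.05, against 185 of 10401 tested genes. Of 37 nuclear complex I genes none passed and none had an unadjusted p under 0.05, against 13.1% of all tested genes. The median of the 37 was −0.05 (0.15 after rescaling), with 33 above the median gene. After median-ratio rescaling again none had an unadjusted p under 0.05 or was without overlap. At the common sum 5 (13.5%) were higher at that p, against 6.99% of all tested genes. There 6 (16.2%) were higher without overlap, against 3.99%, and none passed the adjusted threshold. These medians are descriptions, and no difference between the lists was tested.

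**Figure D4:**
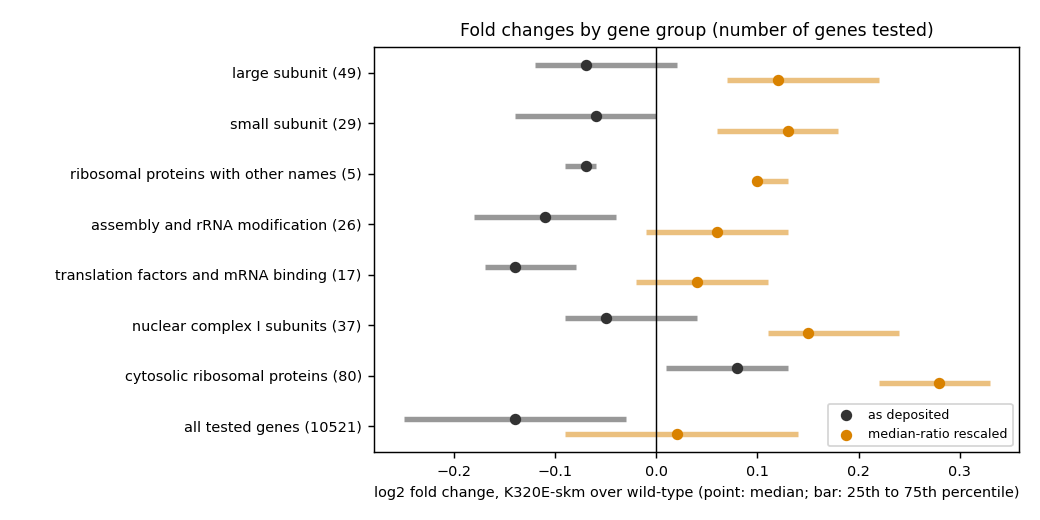
Median log2 fold change of K320E-skm over wild-type (point) and the 25th to 75th percentile of its genes (bar) for each gene group, in the deposited values (grey) and after median-ratio rescaling (orange). Large and small subunit genes lie side by side at −0.07 and −0.06 as deposited, and after rescaling the medians of all groups lie above 0.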

How the data were processed

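The authors deposited 1 table with the FPKM of 48328 Ensembl genes in 8 libraries. The submitters' processing notes name CASAVA, TopHat2 2.0.10, Cufflinks 2.1.1 and the build mm10. No source used here gives the annotation release, strand setting or bias correction. Gene symbols and positions were looked up in GENCODE M21 (GRCm38): 47950 IDs matched and 378 did not.

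Genes with at least 1 FPKM in 4 libraries were tested with limma 3.58.1 (R 4.3.3) on log2(FPKM + 1), with genotype and sex label, trended empirical Bayes and 5 residual degrees of freedom, adjusted over 10521 genes by the Benjamini-Hochberg method. The pseudocount of 1 understates fold changes of low genes. Intervals are 95% and come from the same model. The labels do not describe the origin of the samples beyond separate mice, so p-values reflect the spread among these samples, which may be technical. The exact permutation tests of single values were two-sided and ran over 70 assignments. No libraries were identical. The fit was tested on simulated data. Tables were read with pandas 2.3.3 (Python 3.11.15).

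Genes described singly were set by a rule: those called, those without overlap, the 5 highest and lowest levels, the 4 highest and lowest fold changes, genes of known special role, the 2 smallest p of each related list, and Twnk. Mrpl43, Mrrf, Fau and the genes without overlap after rescaling were named in addition, after their values were seen. The members and all lists were chosen with earlier results of these data known. Alternatives were another pseudocount (0.1), a filter of 5 FPKM or none, median-ratio and quantile scaling, no sex term, a replicate block, robust empirical Bayes, protein-coding genes alone, other subunit assignments, each library left out, and a common sum without ribosomal RNA, added later.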

Additional observations from a re-analysis of the deposited data

Results flagged for a closer look

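In 60 sets of 4 values, covering the 27 named genes, the summed level of each subunit and their ratio in each genotype, 3 single libraries stood far from the other 3, where chance gives about 5% of sets. Mrps36 was at 31.1 FPKM in K320E-skm 1, below 37.6 to 38.7 FPKM in the other K320E-skm libraries. Mrpl24 was at 13.4 FPKM in wild-type 1, above 10.7 to 11.1 FPKM in the other wild-type libraries. The ratio of the summed large to the summed small subunit level was 1.89 in K320E-skm 3, below 1.90 to 1.91 in the other K320E-skm libraries.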

How the results depend on the processing

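No mitochondrial ribosomal protein gene was called in any of the 18 alternatives run, while the direction of the whole set turned with the scaling. Over all tested genes the median log2 fold change was −0.14 in the deposited values, 0.02 after median-ratio rescaling, −0.01 after quantile normalization and 0.06 at a common sum without the 2 ribosomal RNAs. The number of genes without overlap was 1 as deposited. Under those scalings it was 6 (7.69%), 5 (6.41%) and 11 (14.1%), all higher in K320E-skm, against 3.46%, 2.77% and 3.99% of all tested genes. It ranged from 1 to 13 when each library was left out in turn, and the 13 without wild-type 2 (16.7%) were lower in K320E-skm, against 16.8% of all tested genes. With no filter on low values, where 27723 genes entered, the medians relative to the median gene were −0.03 for all 78 genes, −0.04 for large and −0.02 for small subunit genes, against 0.08, 0.07 and 0.08 with the filter. Over all genes, 2 passed with the filter of 1 FPKM, 1 with no filter, 1 with a filter of 5 FPKM, 0 among protein-coding genes alone, and 1 to 2 with each library left out. With each library left out in turn, the difference between the genotypes in the ratio of the summed subunit levels was 0.037 to 0.068 (0.054 with all libraries), and without the 5 highest genes, an alternative chosen after seeing the data, it was 0.022. With the subunits assigned by position in the ribosome this difference was 0.068. The genotypes overlapped in both of these alternatives. The difference of the subunit medians was −0.01 and ranged from −0.01 to 0.03 with each library left out; it was also −0.01 with the subunits assigned by structure. Deviations of same-numbered libraries correlated at 0.156, 0.023, 0.044 and 0.04, so the numbers were not taken to pair the mice; with the replicate block in place of the sex term 2 genes passed in all, 0 of the 78, and 1 of the 78 did not overlap. Of 481 values of the named genes relative to the median gene under the alternatives, 472 moved by less than the spread between replicates and 9 by more. The cause of these shifts was not tested. The absolute depth is unknown, so no counting error can be given, and the number of libraries limits the precision.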
